A study of Mus musculus with 20 samples.

Results

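The 52 genes described here were those whose RNA level in the retina of 21-day-old mice was higher in each of 4 photoreceptor mutants than in wild type. They were picked by their measured values. In the table of postnatal day 21 (P21), the mean of the 2 samples had to be at least 2 times the wild-type mean, and at least 3 FPKM, for every mutant (CrxRip/+, CrxRip/Rip, Crx-/-, Nrl-/-). FPKM scales the fragment count of a gene by the length of its transcript and by the size of the library. Of the 1497 genes of the table, 69 (4.61%) met both conditions. A further 17 of these, named genes and members of named ion channel, transporter and phototransduction families, were set aside by the same rule, which left 52 (3.47%). The distance of these genes from wild type at P21 is thus a description and carries no test. Tests were made of differences between the mutants at P21 and of differences from wild type at postnatal day 2 (P2). The P2 samples played no part in the choice of the genes. The rule set each P21 mutant mean against wild type and not against another mutant. It used the same P21 samples, so the tests between mutants are not independent of it.

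RNA came from whole frozen retina, pooled from 2 retinas per sample, with 2 samples for each of 5 genotypes at each age and C57BL/6J as the labelled strain of every group. The groups were wild type, CrxRip/+ and CrxRip/Rip, which carry 1 or 2 copies of the Rip allele of the photoreceptor homeobox gene Crx, Crx-/-, and Nrl-/-. The labels state no other allele and no treatment, and they do not say whether the 2 retinas of a sample came from the same animal, so the p values measure the spread between these pools. Both tables hold genes already picked by the authors for a difference in at least 1 of their comparisons, 1497 at P21 and 566 at P2, and each comparison shares samples with others. The targeted gene Nrl was at 0.2 FPKM in both P21 Nrl-/- samples against 466.1 and 427.6 FPKM in wild type, at 0.1 to 0.9 FPKM in the CrxRip samples, and at 82.0 and 87.2 FPKM in Crx-/-. Crx was at 350.7 and 343.9 FPKM in wild type, 167.9 and 171.4 in Crx-/- and 174.1 to 310.9 in the CrxRip samples. These are values of a whole transcript and do not show what each allele changes in the gene. All 15 rod marker genes of the table were lower in every mutant, with summed FPKM of 17401.8 and 18437.8 in wild type and 348.7 to 1560.7 in the mutants. The summed FPKM of the whole P21 table was 53395.9 and 55335.3 in wild type and 21569.4 to 40702.0 in the mutants. FPKM is a share of the library, the read depth behind it is unknown, and in whole retina fewer cells of a type and less RNA per cell cannot be told apart.

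CRX is a homeodomain protein that switches on most rod and cone genes, and NRL is a leucine zipper protein that sends photoreceptor precursors to the rod fate. Without NRL the precursors become cone-like cells. Without CRX function rods and cones are specified but do not build working outer segments, and CrxRip is a dominant allele with which photoreceptors do not mature. Rods make up most cells of a normal mouse retina, and none of the 4 mutants forms normal rods.

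Across the 52 genes the median ratio of the mutant to the wild-type mean was 3.56 for CrxRip/+, 3.0 for CrxRip/Rip, 3.77 for Crx-/- and 3.0 for Nrl-/-. The ratios ran from 2.09 to 16.6, from 2.02 to 15.3, from 2.02 to 9.67 and from 2.00 to 19.6, in the same order. On the scale of log2(FPKM + 1) the median differences were 1.45, 1.35, 1.51 and 1.36, beside 0.14, -0.12, -0.04 and 0.17 for all 1497 genes. Every mutant sample lay above both wild-type samples for all 52 genes, and for 31 of them every mutant sample was at least 2 times the higher wild-type sample. Most were low in wild type. The wild-type mean lay between 0.45 and 25.05 FPKM with a median of 2.93 FPKM, and 36 genes were under 5 FPKM. Their summed FPKM was 251.6 and 267.6 in wild type and 779.9 to 944.3 in the mutant samples. Together they held 0.455% and 0.501% of the summed FPKM of the table in wild type and between 2.19% and 3.84% in the mutant samples. The sum of the table was itself lower in the mutants, which raises that share. When the libraries were rescaled by their median ratio over the table, 39 genes met the rule, of which 37 were among the 52.

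**Figure D1:**
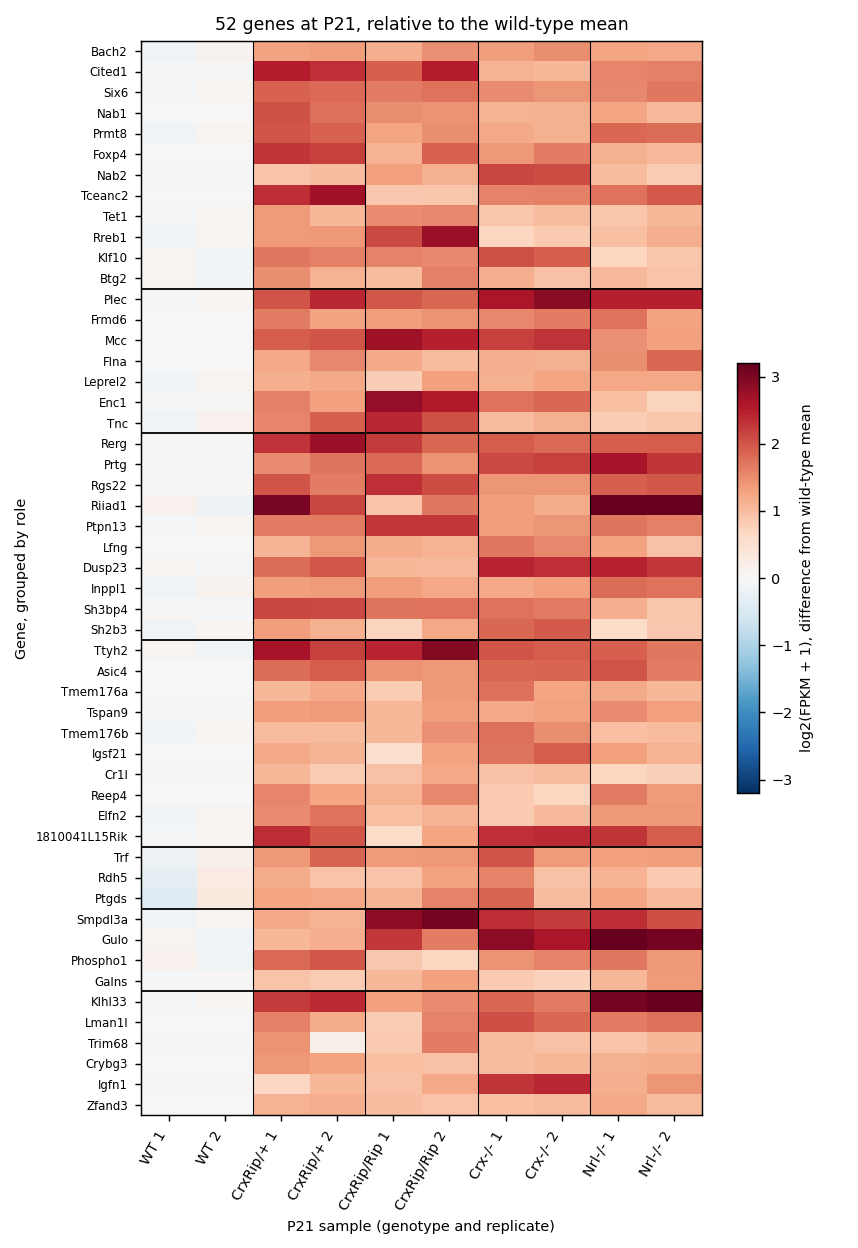
Difference of log2(FPKM + 1) from the wild-type mean for the 52 genes (rows, grouped by role) in the 10 P21 samples (columns, 2 per genotype). Every mutant column is above both wild-type columns in every row, as the selection requires of the means, while the depth of colour differs between mutants for genes such as Enc1, Gulo and Riiad1.

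The genes nearest the threshold show how narrow the rule is at its edge. Just inside were Btg2, whose lowest mutant mean was 2.004 times wild type, 1810041L15Rik at 2.015 times and Klf10 at 2.019 times. Just outside were St3gal5 at 1.977 times, Trhde at 1.973 times and Bckdhb at 1.970 times. At the other end, 12 genes were at 3 times wild type or more in every mutant and 4 genes at 4 times or more. These 4 were Rerg, Prtg, Plec and Rgs22.

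Regulators of transcription and chromatin made up 12 of the 52 genes. Nab1 and Nab2 encode corepressors that bind EGR transcription factors, the products of early response genes. Nab1 (chromosome 1, 52455849 to 52500712 on GRCm38) was at 4.1 and 4.1 FPKM in wild type, 20.1 and 16.4 in CrxRip/+, 13.3 and 12.9 in CrxRip/Rip, 10 and 10.3 in Crx-/-, and 11.3 and 9.5 in Nrl-/-. Nab2 (chromosome 10, 127660918 to 127666703) was at 2.2 and 2.0 FPKM in wild type, 4.8 and 5.1 in CrxRip/+, 6.7 and 5.8 in CrxRip/Rip, 12.6 and 12.1 in Crx-/-, and 5.3 and 4.4 in Nrl-/-. The paralogs were thus highest in different mutants, Nab1 in CrxRip/+ and Nab2 in Crx-/-. Egr1 itself met the fold and level but was among the 17 genes set aside by name, at 3.8 FPKM in both wild-type samples and 27.8 to 64.0 FPKM in the mutants.

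Btg2, an antiproliferative gene of the immediate early class, had the highest wild-type level of the 52, at 26.7 and 23.4 FPKM, with 71.7 and 55.7 in CrxRip/+, 52 and 78.4 in CrxRip/Rip, 57.8 and 49.1 in Crx-/-, and 52.4 and 48.0 in Nrl-/-. Its mutant samples overlapped between genotypes. Klf10, a zinc finger gene induced early by TGF-beta, was at 2.8 and 2.4 FPKM in wild type, 10.6 and 10 in CrxRip/+, 9.9 and 9.5 in CrxRip/Rip, 13.8 and 12.6 in Crx-/-, and 4.8 and 5.7 in Nrl-/-. Here Nrl-/- stood below the 3 Crx mutants without overlap. Six6, a homeobox gene of the developing eye, was at 9.9 and 11.0 FPKM in wild type and 29.3 to 41.2 FPKM in the 8 mutant samples. It was the only member of the 86-gene transcription factor list among the 52, and of the 14 genes of that list in the P21 table it was the only 1 at 2 times wild type in every mutant.

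Bach2, a leucine zipper repressor known from lymphocytes, was the most even of this group, at 0.8 and 1.1 FPKM in wild type and 3.4 to 4.5 FPKM in all mutant samples. Foxp4, a forkhead repressor, was at 4.8 and 5.0 FPKM in wild type and highest in CrxRip/+ at 28 and 26.0, and the 2 CrxRip/Rip samples were far apart at 11.7 and 21.0. Cited1, a coactivator that binds CBP and p300, was at 1.3 and 1.4 FPKM in wild type, 12.5 and 10.8 in CrxRip/+, 7.8 and 12.4 in CrxRip/Rip, 4.1 and 3.9 in Crx-/-, and 5.9 and 6.2 in Nrl-/-. Both CrxRip genotypes were above the knockouts. Prmt8, an arginine methyltransferase of neurons, was at 8.8 and 10.3 FPKM in wild type and 22.4 to 41.6 FPKM in the mutants. Tet1, which oxidises 5-methylcytosine, was at 2.9 and 3.3 FPKM in wild type and 6.6 to 10.8 in the mutants, and is named here after its values were seen. Rreb1 and Tceanc2 are described below, where the mutants differ.

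Since the NAB proteins act on EGR factors, the sequence just before the start of the 52 genes was read for the letters GCGNGGGCG of the EGR binding motif. That motif was chosen after the values were seen, and the motifs TAATCC (CRX and OTX2), TGCTGAC (NRL), TGANTCA (AP-1), TTCNNNGAA (STAT) and CACGTG (E-box) had been listed earlier. Promoter windows were present for 38 of the 52 genes, 53 windows in all, since a gene can have several starts, and each was searched on both strands over the 250 bases before the start. GCGNGGGCG was found in 14 windows (26.4%), those of 13 genes, beside 9.12% of 1481 windows of the other genes of the P21 table and 4.7% of all 32851 windows. The 2 windows of Tnc overlap and hold the same match. Nab2 had 1 window, without a match to GCGNGGGCG. Shares are by window, and the share by gene was not computed for the other sets. The letters GCGNGGGCG overlap GC-rich boxes that other zinc finger proteins bind. Median GC content was 60.4% in the windows of the 52 genes, 59.6% in those of the other table genes and 52.4% in all windows, and among windows of at least 60% GC the shares with GCGNGGGCG were 37.9%, 17.0% and 14.5%. TAATCC was in 7.55% of the members' windows, beside 7.97% of those of the other table genes and 6.25% of all. CACGTG was in 9.43% (7.63% of the other table genes and 6.02% of all), TTCNNNGAA in 5.66% (5.74% and 7.02%), TGANTCA in 3.77% (5.2% and 6.75%) and TGCTGAC in 0 of 53 (4.46% and 3.81%). A match is only a run of letters, and no binding was measured.

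The next lines hold, 5′ to 3′ on the strand of the gene with the matches in capitals, 250 bases before the start of the gene with the most matches (Nab1, 3), of the early response gene of the group (Btg2), of the forkhead gene (Foxp4) and of a gene that holds both GCGNGGGCG and TAATCC (Igsf21). The sequences are from RefSeq on GRCm38.p6, at chr1:52500449-52500698 (minus strand), chr1:134079156-134079405 (minus), chr17:47924633-47924882 (minus) and chr4:140246812-140247061 (minus).
Nab1: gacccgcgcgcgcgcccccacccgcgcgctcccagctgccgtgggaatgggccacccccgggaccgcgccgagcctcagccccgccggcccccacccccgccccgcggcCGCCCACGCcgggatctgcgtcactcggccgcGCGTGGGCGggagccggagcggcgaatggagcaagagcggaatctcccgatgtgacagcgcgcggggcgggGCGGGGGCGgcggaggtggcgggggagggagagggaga
Btg2: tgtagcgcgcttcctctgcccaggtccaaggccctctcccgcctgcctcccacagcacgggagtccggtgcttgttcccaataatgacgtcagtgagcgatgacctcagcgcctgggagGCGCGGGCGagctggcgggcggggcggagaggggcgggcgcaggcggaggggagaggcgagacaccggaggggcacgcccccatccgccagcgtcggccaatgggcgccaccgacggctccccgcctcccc
Foxp4: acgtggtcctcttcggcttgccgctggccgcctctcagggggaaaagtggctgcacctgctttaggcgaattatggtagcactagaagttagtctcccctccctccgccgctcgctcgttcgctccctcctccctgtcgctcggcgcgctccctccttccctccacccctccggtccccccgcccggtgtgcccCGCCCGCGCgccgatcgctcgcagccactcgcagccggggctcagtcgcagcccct
Igsf21: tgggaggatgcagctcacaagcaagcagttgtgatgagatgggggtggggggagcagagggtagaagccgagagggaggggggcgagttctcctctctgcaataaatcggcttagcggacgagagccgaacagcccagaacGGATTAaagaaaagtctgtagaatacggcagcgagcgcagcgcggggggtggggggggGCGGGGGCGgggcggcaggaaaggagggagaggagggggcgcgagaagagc
Counted from the start, the Nab1 matches begin at -141, -109 and -38, that of Btg2 at -131 and that of Foxp4 at -56. In Igsf21 the reverse complement of TAATCC begins at -109 and GCGNGGGCG at -51.

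Genes of the cytoskeleton and the extracellular matrix made up 7 of the 52. Plec encodes plectin, which ties intermediate filaments to junctions and to other filaments. It was at 3.1 and 3.5 FPKM in wild type, 16.5 and 22.0 in CrxRip/+, 16.0 and 14.5 in CrxRip/Rip, 25.1 and 30.9 in Crx-/-, and 23.0 and 23.3 in Nrl-/-. Every mutant sample was over 4 times the higher wild-type sample. Flna, the actin crosslinker filamin A, was at 7.9 and 8.2 FPKM in wild type and 17.3 to 31.5 FPKM in the mutants, and Frmd6, a FERM domain protein, at 1.6 FPKM in both wild-type samples and 5.4 to 7.6 FPKM in the mutants. Tnc, the matrix glycoprotein tenascin-C, was at 2.0 and 2.6 FPKM in wild type, 8.8 and 11.5 in CrxRip/+, 16.5 and 12.6 in CrxRip/Rip, 5.7 and 6.3 in Crx-/-, and 4.8 and 5.1 in Nrl-/-. It was higher in both CrxRip genotypes than in the knockouts, without overlap. Mcc, a coiled-coil protein of the submembrane cytoskeleton, was at 3.0 FPKM in both wild-type samples and 8.9 to 25.1 FPKM in the mutants. Leprel2 (now P3h3), a modifier of collagen, was at 6.5 and 7.5 FPKM in wild type and 12.7 to 18.8 FPKM in the mutants (named after its values were seen).

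Signalling genes made up 10 of the 52. Rerg, a RAS-like growth inhibitor, had the lowest wild-type level of all 52 genes, at 0.5 and 0.4 FPKM. It was at 6.2 and 8.7 FPKM in CrxRip/+, 5.8 and 4.2 in CrxRip/Rip, 4.6 and 4.1 in Crx-/-, and 4.5 and 4.6 in Nrl-/-. Its ratios of 9.67 to 16.6 rest on wild-type values that the deposited single decimal gives coarsely. Rgs22, of the family that turns off G proteins, was at 0.8 and 0.9 FPKM in wild type and 3.9 to 8.3 FPKM in the mutants. Prtg, an immunoglobulin superfamily receptor of the embryonic neural tube, was at 1.0 and 0.9 FPKM in wild type, 4.6 and 5.4 in CrxRip/+, 5.9 and 4.3 in CrxRip/Rip, 7.5 and 7.9 in Crx-/-, and 11.1 and 8.5 in Nrl-/-. Both Nrl-/- samples were above all others, though the difference from Crx-/- was not called in the test of mutant pairs described below.

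Ptpn13, a large tyrosine phosphatase, was at 1.3 and 1.5 FPKM in wild type, 6.6 and 6.6 in CrxRip/+, 10.6 and 10.6 in CrxRip/Rip, 5.1 and 5.4 in Crx-/-, and 6.8 and 6.3 in Nrl-/-. CrxRip/Rip stood above the other genotypes. Lfng, a glycosyltransferase that modifies Notch, was at 1.5 FPKM in both wild-type samples and 3.8 to 7.1 FPKM in the mutants, and Sh3bp4, a protein of receptor endocytosis, was at 3.6 and 3.3 FPKM and 7.2 to 18.6 FPKM. Sh2b3, an adaptor that restrains cytokine receptor signalling, was at 1.7 and 2.0 FPKM in wild type, 6.2 and 5.3 in CrxRip/+, 3.7 and 5.7 in CrxRip/Rip, 9.2 and 10.1 in Crx-/-, and 3.3 and 4.2 in Nrl-/-. Here Crx-/- stood apart. Inppl1, an inositol lipid phosphatase named after its values were seen, was at 2.9 and 3.6 FPKM in wild type and 8.9 to 13.6 FPKM in the mutants.

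Membrane proteins made up 10 of the 52. Ttyh2, of the tweety family of chloride channels, reached the highest genotype mean of the 52, with values of 11.8 and 10.2 FPKM in wild type, 73.1 and 53.9 in CrxRip/+, 64.5 and 91.0 in CrxRip/Rip, 47.5 and 45.3 in Crx-/-, and 44.2 and 37.8 in Nrl-/-. Asic4, of the acid-sensing ion channel family, was at 13.4 and 13.1 FPKM in wild type and 36.3 to 56.3 FPKM in the mutants. 1810041L15Rik (now Shisal1) was at 12.4 and 13.7 FPKM in wild type, 70.9 and 54.8 in CrxRip/+, 20.1 and 32.5 in CrxRip/Rip, 70.0 and 72.6 in Crx-/-, and 67.2 and 52.8 in Nrl-/-, so CrxRip/Rip was well below the other mutants. Elfn2 and Igsf21, both cell surface proteins of synapses, were at 8.1 and 9.3 FPKM and at 6.8 FPKM in both wild-type samples, and at 16.3 to 31.3 FPKM and 10.3 to 29.0 FPKM in the mutants. Tspan9, a tetraspanin, was at 12.7 and 13.3 FPKM in wild type and 28.1 to 39.0 FPKM in the mutants, and Reep4, of the endoplasmic reticulum, at 2.1 FPKM in both wild-type samples and 4.0 to 8.8 FPKM in the mutants. Cr1l, Tmem176a and Tmem176b complete the group and were named after their values were seen. Cr1l, a complement regulator, was at 1.5 and 1.6 FPKM in wild type and 3.1 to 5.0 FPKM in the mutants. Tmem176a, at 3.4 and 3.3 FPKM in wild type and 6.6 to 13.7 FPKM in the mutants, lies within the span of Tmem176b (chromosome 6, 48841483 to 48845364 within 48833811 to 48845948 on GRCm38). Tmem176b was at 7.4 and 8.3 FPKM in wild type and 16.2 to 29.2 FPKM in the mutants. The libraries were directional per the labels, but whether the counting used strand is not given, so their reads cannot be told apart here.

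Enzymes of metabolism and the lysosome were 4 of the 52. Gulo, which makes the last step of vitamin C synthesis in mice, was at 7.5 and 6.5 FPKM in wild type, 15.8 and 16.8 in CrxRip/+, 37.4 and 23.8 in CrxRip/Rip, 57.5 and 48.2 in Crx-/-, and 84.9 and 66.3 in Nrl-/-. The genotypes did not overlap, and the order ran from CrxRip/+ through CrxRip/Rip and Crx-/- to Nrl-/-, though the step from Crx-/- to Nrl-/- was not called in the test of mutant pairs described below. Smpdl3a, a phosphodiesterase related to acid sphingomyelinase, was at 0.8 and 1.0 FPKM in wild type, 3.4 and 3.1 in CrxRip/+, 12.7 and 14.9 in CrxRip/Rip, 8.8 and 8.0 in Crx-/-, and 8.7 and 7.0 in Nrl-/-. Its ratio to wild type was 3.61 in CrxRip/+ and 15.3 in CrxRip/Rip. Phospho1, a phosphatase of phosphocholine, was at 2.0 and 1.5 FPKM in wild type and 3.4 to 9.9 FPKM in the mutants, lowest in CrxRip/Rip. Galns, a lysosomal sulfatase named after its values were seen, was at 1.8 and 2.0 FPKM in wild type and 3.8 to 6.4 FPKM in the mutants.

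A last group of 6 genes fell in none of these roles. Igfn1, listed here with bipolar cell markers, was at 3.2 and 3.4 FPKM in wild type, 5.8 and 8.0 in CrxRip/+, 7.2 and 8.9 in CrxRip/Rip, 19.9 and 21.9 in Crx-/-, and 8.6 and 10.4 in Nrl-/-. Crx-/- stood above every other sample. Of the 6 bipolar markers in the P21 table, Igfn1 alone met the fold and level. By their means, Lhx4 and Otx2 were above wild type in every mutant and Car8 and Prkca below it. Cabp5 was below wild type in CrxRip/Rip alone. Klhl33, a kelch family gene (chromosome 14, 50888581 to 50897483 on GRCm38), was at 2.7 and 3.0 FPKM in wild type, 17.0 and 19.2 in CrxRip/+, 8.6 and 10 in CrxRip/Rip, 12.7 and 11.2 in Crx-/-, and 31.4 and 34.3 in Nrl-/-. Klhl33 lies 4.62 Mb from the targeted gene Nrl. The part of this position in its level was not tested. Lman1l, a lectin of the early secretory pathway, was at 2.5 and 2.4 FPKM in wild type and 5.1 to 13.3 FPKM in the mutants. Crybg3, Trim68 and Zfand3 were named after their values were seen. Crybg3, a crystallin-related gene, was at 4.4 and 4.3 FPKM in wild type and 9.3 to 13.1 FPKM in the mutants, and Zfand3, a zinc finger gene, at 8.2 and 8.0 FPKM and 16.1 to 20 FPKM. Trim68, of the tripartite motif family, was at 2.0 and 1.8 FPKM in wild type, and its CrxRip/+ samples, at 6.9 and 2.3 FPKM, were far apart.

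How far the 4 mutants share the same level was then tested, because the rule asked only that each be above wild type. The ratio of the highest to the lowest mutant mean had a median of 1.82, was under 1.5 for 17 genes and was 3 or more for 8 genes. limma was fitted to log2(FPKM + 1) of all 1497 genes and 10 samples, and a gene was called at a Benjamini-Hochberg adjusted p under 0.05 over the table. Between CrxRip/Rip and CrxRip/+ 21 of the 52 genes were called, where 47.0% of all genes were called. Of these, 7 were higher in CrxRip/Rip (11.0% of all genes) and 14 lower (35.9%). Between CrxRip/+ and Crx-/- 29 were called beside 52.6% of all genes, 17 higher in CrxRip/+ (29.9% of all genes) and 12 lower (22.7%). CrxRip/Rip and Crx-/- differed in 29 beside 53.4% of all genes, with 13 higher in CrxRip/Rip (19.4%) and 16 lower (33.9%). Nrl-/- differed from Crx-/- in 21 beside 65.1%, with 11 higher (39.4% of all genes) and 10 lower (25.7%). From CrxRip/+ it differed in 18 beside 48.8%, with 6 higher (27.7%) and 12 lower (21.0%). From CrxRip/Rip it differed in 29 beside 66.8%, with 15 higher (45.6%) and 14 lower (21.2%). These shares of members, 34.6% to 55.8%, lie near or below the share of the whole table. The table also holds genes not raised in every mutant, which the rule leaves out, so the shares are not compared by a test.

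Rescaling the libraries by their median ratio shifted log2 ratios of FPKM by 0.29, -0.12, 0.17, -0.17, -0.05 and -0.35 in the same order. On the log2(FPKM + 1) scale of the fit the shift depended on the level of the gene. Rescaling also moved the split of higher to lower. It became 15 to 6, 14 to 15, 15 to 10, 6 to 14, 6 to 13 and 8 to 21, so whether more of the 52 were higher or lower in a mutant depends on the scale for all pairs except Nrl-/- and CrxRip/+. Single libraries moved some counts. For CrxRip/+ and Crx-/- 19 genes were called without CrxRip/+ replicate 1, 18 without Crx-/- replicate 1 and 15 without Crx-/- replicate 2, and for CrxRip/Rip and Crx-/- 17 without Crx-/- replicate 1. Differences between mutants given below with an adjusted p kept their call in each of the 10 alternatives run for them, unless a sentence says otherwise.

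**Figure D2:**
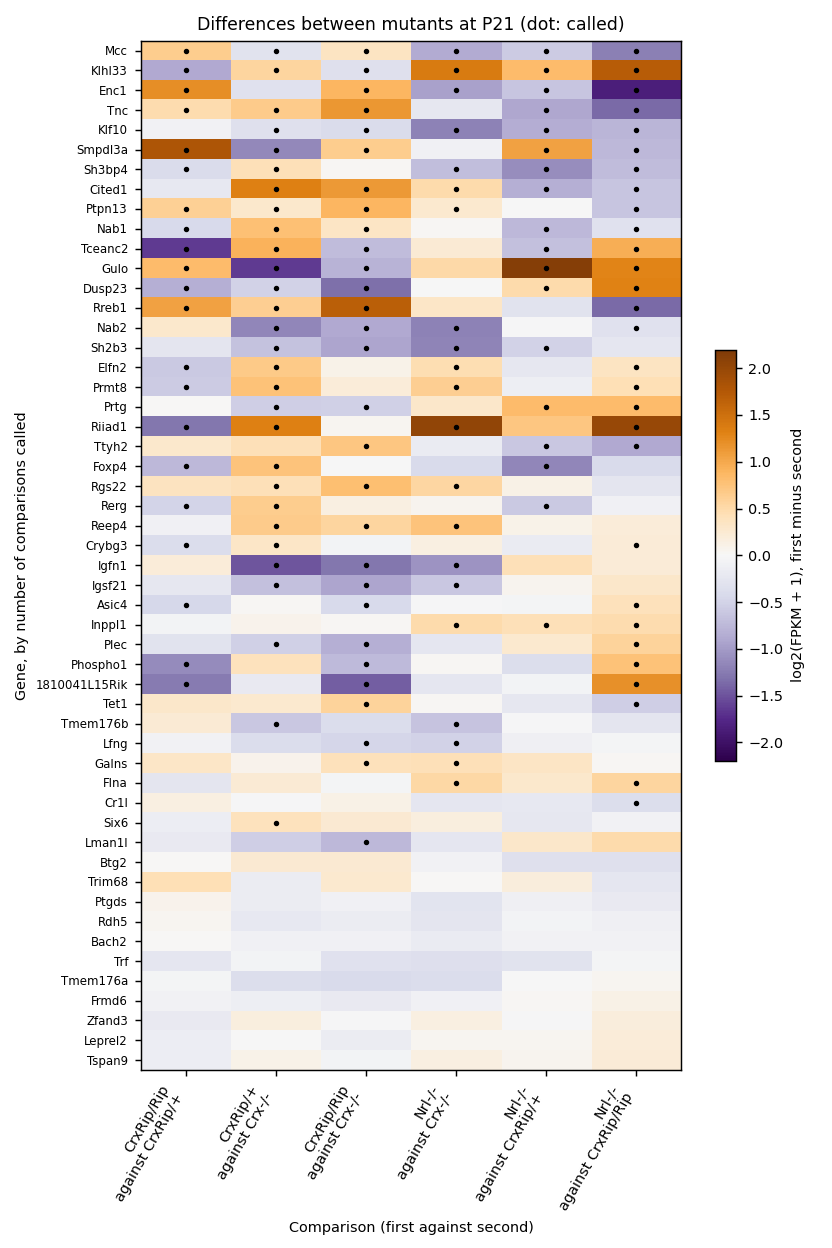
Difference of log2(FPKM + 1) between mutants at P21 for the 52 genes (rows, ordered by the number of called comparisons) in the 6 comparisons (columns), with a dot where the limma adjusted p was under 0.05. Mcc and Klhl33 were called in all 6 comparisons, and the bottom 11 rows in none.

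No pair of mutants was called for 11 of the 52 genes (21.2%), beside 148 of all 1497 genes (9.89%). These were Bach2, Btg2, Frmd6, Leprel2, Ptgds, Rdh5, Tmem176a, Trf, Trim68, Tspan9 and Zfand3. For these genes a difference between mutants did not pass the test at 2 samples a group, which does not show that the levels are equal. Here too the rule leaves out genes not raised in every mutant, so the share of members and that of all genes are not compared by a test. At the other end, Mcc and Klhl33 were called in all 6 pairs, though Mcc kept only 4 of these calls and Klhl33 5 in every alternative.

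CrxRip/Rip and CrxRip/+ had different levels of several members. The 2 genotypes differ both in the number of Rip copies and in the number of normal Crx copies, which cannot be told apart here. Smpdl3a was higher in CrxRip/Rip by 1.80 (SE 0.13, adjusted p = 3.67e-05) on the log2(FPKM + 1) scale, with 13.8 ± 1.56 FPKM against 3.25 ± 0.21 (SD, n = 2). Enc1, an actin-binding kelch protein of neurons, was at 20 and 16.4 FPKM in CrxRip/Rip and 8.1 and 6.5 in CrxRip/+, with 1.9 and 2.1 in wild type. Its difference was 1.21 (SE 0.14, adjusted p = 0.000335). Mcc was higher by 0.64 (adjusted p = 0.0018) and Ptpn13 by 0.61 (adjusted p = 0.000957). In the other direction, Tceanc2, whose protein has a domain of transcription elongation factor TFIIS, was at 4.4 and 4.5 FPKM in CrxRip/Rip and 14.1 and 18.1 in CrxRip/+, with 1.9 and 2.0 in wild type. That difference was -1.64 (SE 0.13, adjusted p = 4.58e-05). Phospho1 differed by -1.12 (adjusted p = 0.000558), Klhl33 by -0.89 (adjusted p = 0.000521) and Dusp23, a small dual-specificity phosphatase, by -0.84 (adjusted p = 0.00067). Of the 21 calls of this pair, 8 were kept in every alternative.

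The knockout of Crx differed from CrxRip/+ most in Gulo (difference of CrxRip/+ from Crx-/- -1.63, SE 0.21, adjusted p = 0.000391), and from CrxRip/Rip most in Rreb1. Igfn1 was lower in CrxRip/+ than in Crx-/- (difference -1.48, SE 0.16, adjusted p = 0.000165) and lower in CrxRip/Rip (difference -1.28, SE 0.16, adjusted p = 0.000285). Nab2 was likewise lower than in Crx-/-, with differences of -1.17 in CrxRip/+ (SE 0.11, adjusted p = 8.49e-05) and -0.88 in CrxRip/Rip (SE 0.11, adjusted p = 0.000287). Its paralog Nab1 went the other way in CrxRip/+, with a difference of 0.78 (SE 0.12, adjusted p = 0.000806). Rreb1, a zinc finger protein that binds RAS-responsive elements, was at 1.6 and 1.9 FPKM in wild type, 10.9 and 17.5 in CrxRip/Rip and 3.4 and 3.9 in Crx-/-. Its difference was 1.68 (SE 0.19, adjusted p = 0.000174). Dusp23 was at 1.3 and 1.1 FPKM in wild type, 3.6 and 3.5 in CrxRip/Rip and 10.9 and 10.1 in Crx-/- (difference -1.34, SE 0.11, adjusted p = 3.21e-05). Cited1 was higher than in Crx-/- by 1.34 in CrxRip/+ (adjusted p = 0.000477) and by 1.12 in CrxRip/Rip (adjusted p = 0.00108), and Tnc by 1.14 in CrxRip/Rip (adjusted p = 0.000655). 1810041L15Rik differed between CrxRip/Rip and Crx-/- by -1.44 (adjusted p = 0.000874).

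Nrl-/- had the highest level of Klhl33, Riiad1 and Gulo among the mutants. Klhl33 was higher in Nrl-/- than in CrxRip/Rip by 1.72 (SE 0.11, adjusted p = 5.11e-06), than in Crx-/- by 1.39 (adjusted p = 2.13e-05) and than in CrxRip/+ by 0.83 (adjusted p = 0.000601). Riiad1, whose protein has a dimerisation domain of the type found in protein kinase A, was at 1.1 and 0.7 FPKM in wild type, 14.6 and 7.3 in CrxRip/+, 2.6 and 5.1 in CrxRip/Rip, 3.8 and 3.3 in Crx-/-, and 18.6 and 16.7 in Nrl-/-. It was higher in Nrl-/- than in Crx-/- by 2.04 (SE 0.32, adjusted p = 0.000658) and than in CrxRip/Rip by 1.99 (SE 0.32, adjusted p = 0.000755), while its difference from CrxRip/+ was not called (0.71, SE 0.32, adjusted p = 0.101). Gulo was higher in Nrl-/- than in CrxRip/+ by 2.14 (SE 0.21, adjusted p = 0.000106) and than in CrxRip/Rip by 1.30 (SE 0.21, adjusted p = 0.000754). Gulo stands in the list of cone markers, and the summed FPKM of the 18 cone markers of the table was 7338.2 and 7619.0 in Nrl-/-, 612.0 to 1352.4 in the Crx mutants and 1088.2 and 1153.6 in wild type. In the Crx mutants the cone markers went both ways, which the sum does not show. The mean of Opn1sw was 152.75 FPKM in wild type and 0.2 to 2.7 FPKM in the Crx mutants. That of Gngt2 was 50.7 FPKM in wild type and 193.15 to 461.05 FPKM in the Crx mutants. The parts of cone number and of chromosome position in the Gulo level were not tested.

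Klf10, Sh3bp4, Enc1 and Mcc were lower in Nrl-/- than in each mutant of Crx. For Klf10 the differences were -1.19 against Crx-/- (SE 0.11, adjusted p = 3.47e-05), -0.86 against CrxRip/+ (adjusted p = 0.000387) and -0.78 against CrxRip/Rip (adjusted p = 0.000317). Sh3bp4 was at 8.9 and 7.2 FPKM in Nrl-/- and 13.2 to 18.6 FPKM in the other mutants, with differences of -1.11 against CrxRip/+ (adjusted p = 9.05e-05), -0.72 against CrxRip/Rip (adjusted p = 0.000448) and -0.69 against Crx-/- (adjusted p = 0.000542). The difference of Enc1 between Nrl-/- and CrxRip/Rip was -1.84 (SE 0.14, adjusted p = 1.22e-05), and its call against CrxRip/+ (difference -0.63, adjusted p = 0.00734) was not kept in every alternative. Mcc differed from CrxRip/Rip by -1.21 (adjusted p = 2.48e-05) and from Crx-/- by -0.87 (adjusted p = 0.000163).

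**Figure D3:**
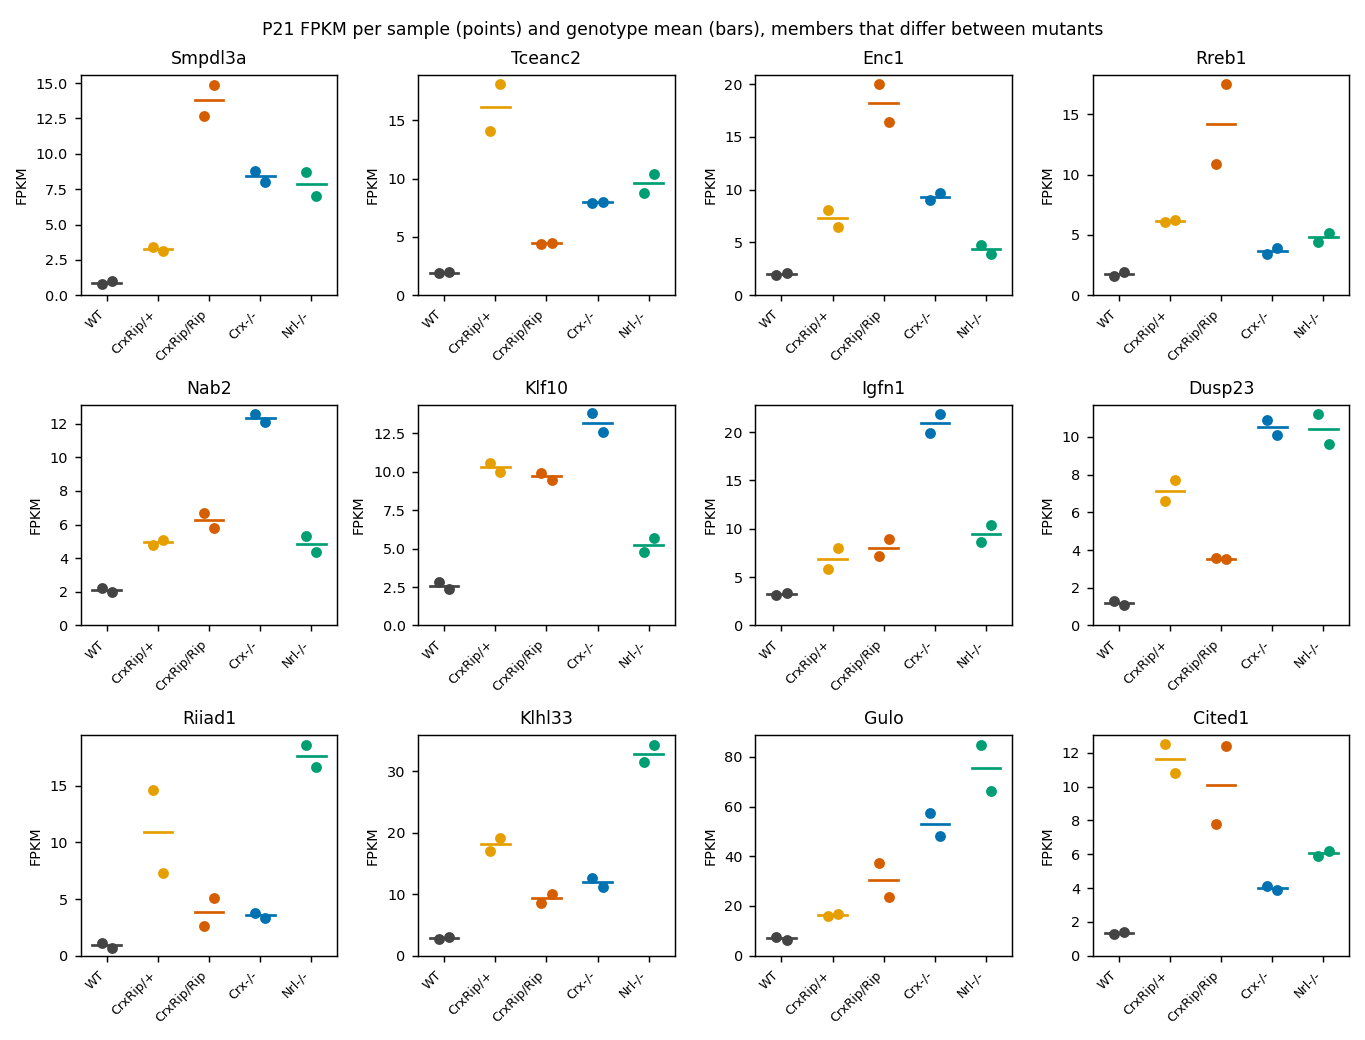
FPKM at P21 in each sample (points) and genotype mean (bars) for 12 members with called differences between mutants, each panel with its own axis from 0. Smpdl3a, Enc1 and Rreb1 are highest in CrxRip/Rip, Tceanc2 in CrxRip/+, Nab2, Klf10 and Igfn1 in Crx-/-, and Riiad1, Klhl33 and Gulo in Nrl-/-.

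Counted over all 52 genes, the highest mutant mean was that of Crx-/- for 17, CrxRip/+ for 13, CrxRip/Rip for 12 and Nrl-/- for 10. After rescaling these numbers were 16, 9, 21 and 6. Both samples of the highest genotype lay above all 8 other samples for 10 genes in CrxRip/+, beside 5.48% of all genes of the table. The same held for 8 genes in CrxRip/Rip (8.55% of all genes), 9 in Crx-/- (13.3%) and 5 in Nrl-/- (18.6%). The selection excludes genes that are high in 1 mutant alone, which the whole table includes, so these shares are not compared by a test. The lowest mutant mean was that of Nrl-/- for 17 genes, CrxRip/Rip for 16, Crx-/- for 14 and CrxRip/+ for 5.

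At P2, when rods are still being born, 7 of the 52 genes were in the table of 566 genes. Those 7 were Tnc, Btg2, Rgs22, Riiad1, 1810041L15Rik, Elfn2 and Klhl33. The other 45 were not analysed at P2. Each age had its own scaling by the authors, so levels are compared only within an age. In CrxRip/+ 1 of the 7 differed from wild type beside 16.4% of all genes, and it was lower (12.7% of all genes were lower and 3.71% higher). CrxRip/Rip differed in 3, all lower, beside 27.0% (21.2% lower and 5.83% higher). Crx-/- differed in 0 beside 29.9% (20.7% lower and 9.19% higher). Nrl-/- differed in 5, 2 higher and 3 lower, beside 83.6% (18.9% higher and 64.7% lower). None of the 7 was called higher in the Crx mutants in this fit. In CrxRip/Rip 1 member was called higher after rescaling (3 called) and 1 with no variance trend (4 called). In Crx-/- 2 members were called higher after rescaling, and 1 with the 3 FPKM minimum, the 4 samples alone, the replicate block or no variance trend. As fitted, 2 genes had an unadjusted p under 0.05, and 2 had an adjusted p under 0.05 in the authors' deposited table, where 36.6% of all genes did.

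Riiad1 was at 2.4 and 2.8 FPKM in wild type at P2, 1.6 and 1.2 in CrxRip/+, 0.8 and 0.7 in CrxRip/Rip, 3.4 and 3.2 in Crx-/-, and 3.7 in both Nrl-/- samples. It was lower in CrxRip/Rip (difference -1.04, SE 0.10, adjusted p = 0.000105) and in CrxRip/+ (difference -0.59, SE 0.10, adjusted p = 0.00639), the latter not called without wild-type replicate 2 or in a fit to the 4 samples alone. In the authors' deposited table the adjusted p of Riiad1 in CrxRip/+ was 0.105, and that of 1810041L15Rik was 0.00168 (adjusted p = 0.0541 by limma). 1810041L15Rik was at 30.8 and 32.8 FPKM in wild type, 24.2 and 21.6 in CrxRip/+, 16.1 and 12.3 in CrxRip/Rip, 42.3 and 43.0 in Crx-/-, and 33.5 and 34.8 in Nrl-/-. Its difference in CrxRip/Rip was -1.12 (SE 0.14, adjusted p = 0.000299). For both genes the CrxRip samples lay below wild type and the Crx-/- samples above it. Elfn2 was at 2.3 and 2.8 FPKM in wild type and 1.9 and 1.3 in CrxRip/Rip (difference -0.46, SE 0.13, adjusted p = 0.035), a call that was not kept in every alternative. Btg2 was at 74.5 and 82.9 FPKM in wild type, 89.9 and 86.9 in CrxRip/+ and 101.8 and 97.0 in CrxRip/Rip. Its CrxRip samples thus lay above wild type, with no call as fitted.

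The P2 values of Nrl-/- depend on the scale, because 366 of the 566 genes were called lower there and rescaling moved log2 ratios of FPKM by 1.06. On the log2(FPKM + 1) scale of the fit the move depended on the level of the gene. As deposited, Tnc was at 3.0 and 2.6 FPKM in Nrl-/- against 6.1 and 7.3 in wild type (difference -1.02, SE 0.17, adjusted p = 0.000662), Btg2 at 37.7 and 33.6 against 74.5 and 82.9 (-1.12, adjusted p = 5.46e-05) and Rgs22 at 1.3 in both against 2.4 and 2.7 (-0.62, adjusted p = 0.000698). After rescaling none of these 3 was called, and Rgs22 changed sign to 0.063. Riiad1 (difference 0.39, adjusted p = 0.00794) and Klhl33 were higher than wild type. Klhl33 was at 10.1 and 12.2 FPKM in Nrl-/- against 5.7 and 1.1 in wild type (1.69, SE 0.65, adjusted p = 0.0387), and it was uneven between replicates in 3 groups. Rescaled, 4 of the 7 were called, all higher. None of the 5 calls of Nrl-/- at P2 was kept in every alternative.

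**Figure D4:**
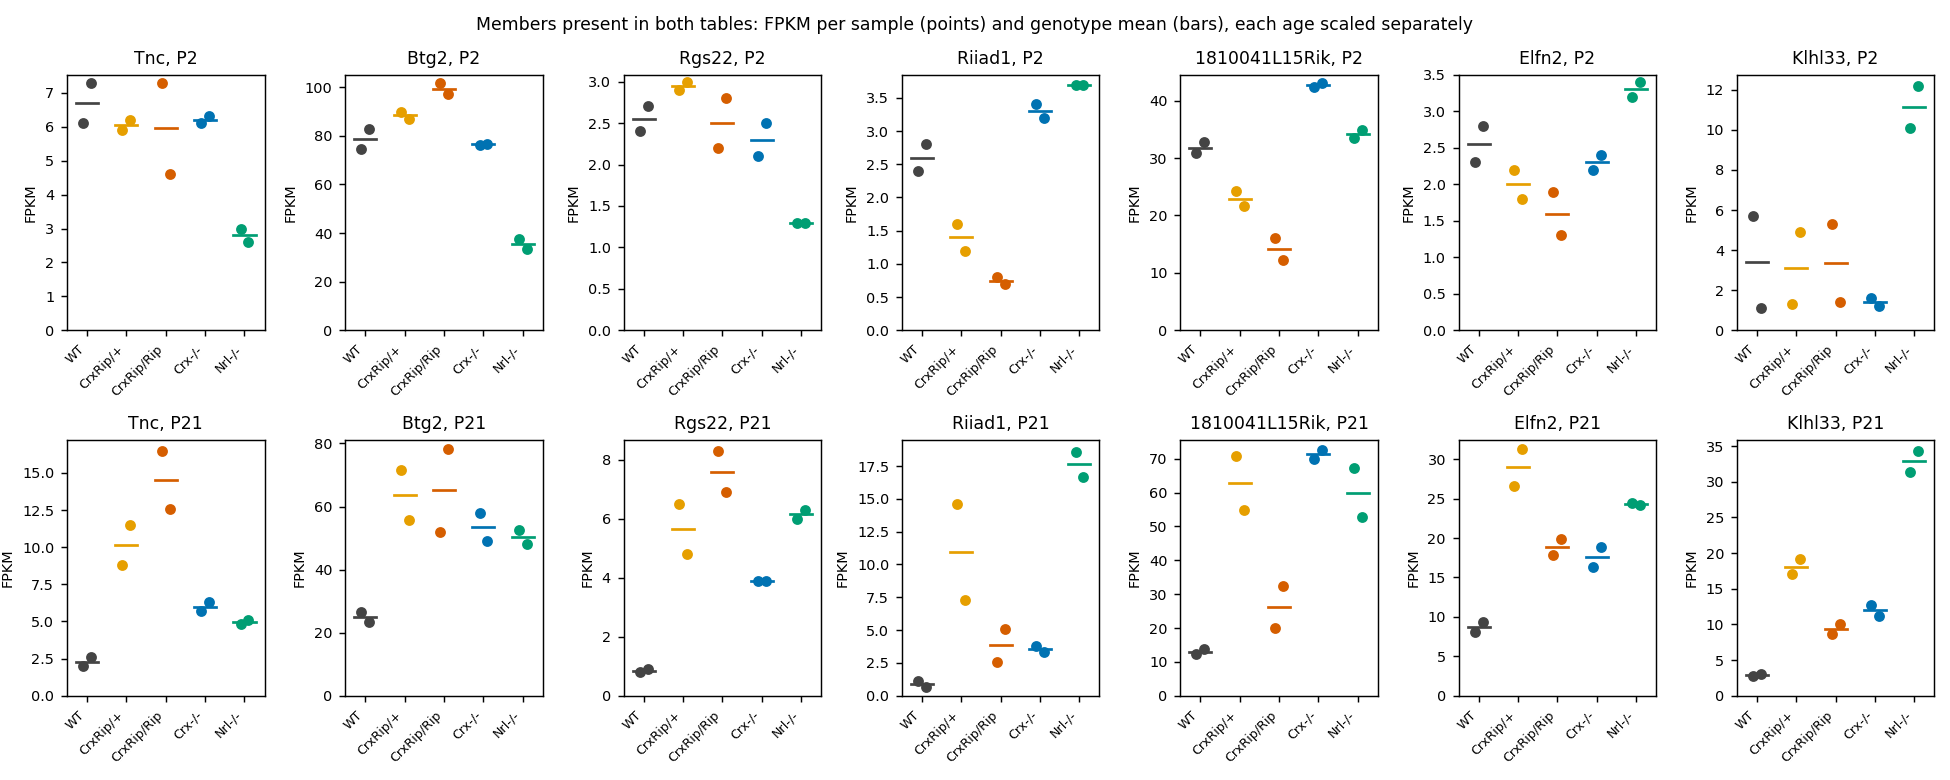
FPKM in each sample (points) and genotype mean (bars) for the 7 members present in both tables, at P2 (top) and P21 (bottom), each panel with its own axis from 0. At P21 every mutant is above wild type by selection, while at P2 Tnc, Btg2 and Rgs22 are lowest in Nrl-/-, and Riiad1 and 1810041L15Rik are lowest in CrxRip/Rip.

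The remaining 3 genes, Trf, Ptgds and Rdh5, are known to be made in the eye by the retinal pigment epithelium, the layer behind the photoreceptors, among other cells. Trf, the iron carrier transferrin, was at 16.9 and 21.4 FPKM in wild type, 51.5 and 72.7 in CrxRip/+, 50.4 and 52.1 in CrxRip/Rip, 79.9 and 50.9 in Crx-/-, and 49.0 and 50.2 in Nrl-/-. Ptgds, which makes prostaglandin D2, was at 9.1 and 15.7 FPKM in wild type and 25.4 to 47.7 FPKM in the mutants. Rdh5, the 11-cis retinol dehydrogenase of the visual cycle, was at 1.4 and 2.6 FPKM in wild type and 4.4 to 8.0 FPKM in the mutants. In all 3 genes wild-type replicate 2 was above replicate 1 and Crx-/- replicate 1 was well above replicate 2, and no pair of mutants was called.

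Pigment epithelium markers showed the same order of replicates in wild type and Crx-/-, but not throughout. Of the 16 markers listed, 8 were in the P21 table, Rdh5 included, and 4 were at 2 times wild type and at 3 FPKM or more in every mutant. Tyrp1, at 0.7 FPKM in wild type, met the fold but not the level. Their summed FPKM was 12.8 and 25.2 in wild type, 57.4 and 51.0 in CrxRip/+, 53.0 and 70.9 in CrxRip/Rip, 94.1 and 56.8 in Crx-/-, and 59.8 and 45.2 in Nrl-/-. In CrxRip/+ the sum was higher in replicate 1 and Trf in replicate 2, and in CrxRip/Rip the sum was higher in replicate 2 while the Trf values were close to each other. Rpe65, the isomerase of the visual cycle, was at 0.5 and 1.1 FPKM in wild type and 5.9 and 2.8 in Crx-/-, and Ttr, the carrier transthyretin, at 3.2 and 7.8 FPKM in wild type and 32.7 and 18.1 in Crx-/-. The part of pigment epithelium in the levels of Trf, Ptgds and Rdh5 was not tested.

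**Figure D5:**
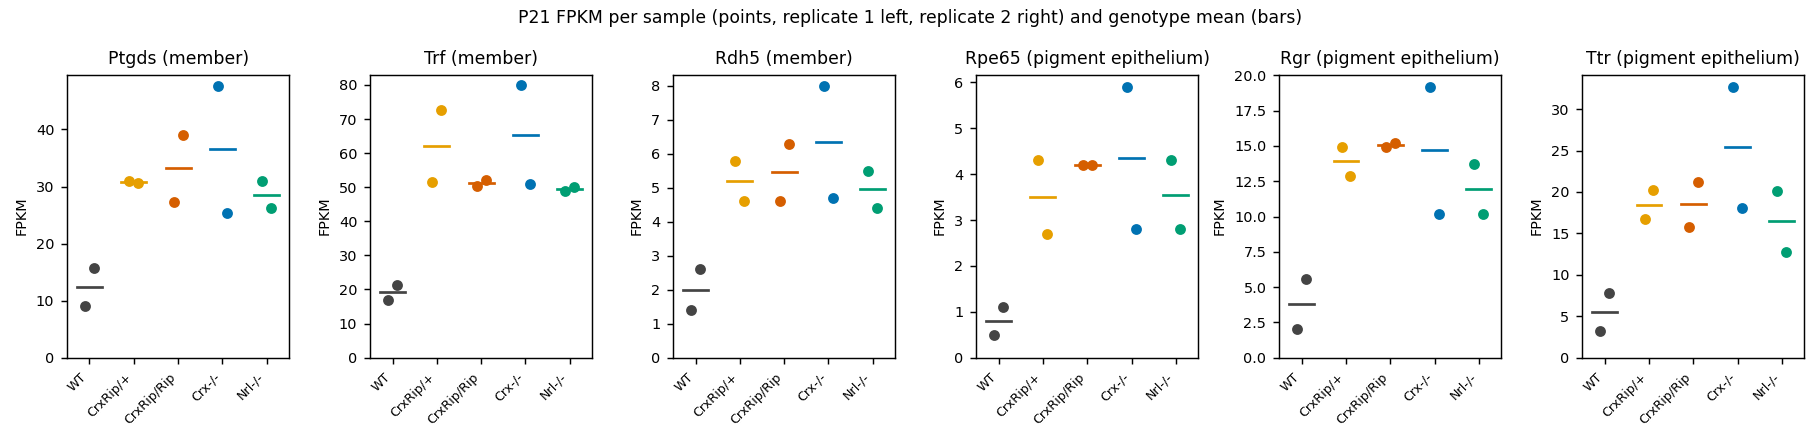
FPKM at P21 in each sample (points, replicate 1 left and replicate 2 right) and genotype mean (bars) for Ptgds, Trf and Rdh5 and for 3 pigment epithelium markers outside the 52 genes, each panel with its own axis from 0. In all 6 panels wild-type replicate 1 is below replicate 2, and Crx-/- replicate 1 is above replicate 2.

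Other cell types were represented by few of the 52 genes. Only 6 were in any of the 25 marker and function lists, a number that the exclusions by name lowered. Of 13 listed genes that met the fold and level, 7 had been set aside, the cone markers Rxrg, Cngb3 and Gngt2, the pigment epithelium markers Rpe65, Rgr and Ttr, and Fabp7 of lipid metabolism. The 6 were Flna (cytoskeleton), Tnc (matrix), Six6 (transcription factors), Gulo (cone), Igfn1 (bipolar) and Rdh5 (pigment epithelium). No member came from the lists of Müller glia (5 of 28 genes in the table), astrocytes (2 of 7), microglia (5 of 26), amacrine (3 of 25), horizontal (3 of 12) or ganglion cells (1 of 18), or of endothelium and pericytes (6 of 19). Summed FPKM of the 5 microglia markers was 9.5 and 9.8 in wild type and 9.1 to 26.6 in the mutants, and that of the 2 astrocyte markers 4.9 and 5.4 and 8.6 to 30.2. Their part in the levels of the 52 genes was not tested.

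The 52 genes lie on 19 chromosomes, with 7 on chromosome 1, 6 on chromosome 6 and 5 on chromosome 15. Apart from Tmem176a and Tmem176b, the members closest to each other were Prmt8 and Tspan9, 192 kb apart on chromosome 6, and Inppl1 and Trim68, 0.839 Mb apart on chromosome 7. Both had their higher means in CrxRip/+ and Nrl-/-, at 39.8 and 36.15 FPKM for Prmt8 and 34.7 and 36.35 FPKM for Tspan9, and their lower ones in CrxRip/Rip and Crx-/-, at 26.45 and 23 FPKM and at 31.35 and 32.5 FPKM. Prmt8 was higher in CrxRip/+ than in Crx-/- (difference 0.76, SE 0.11, adjusted p = 0.000679), no pair was called for Tspan9, and the difference between the genes was not tested.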

How the data were processed

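The whole-series tables of P2 and of P21 give for each gene a RefSeq transcript, an FPKM value per sample, genotype means and the authors' comparisons. The authors deposited FPKM to 1 decimal, and their comparison columns hold adjusted p values and fold changes on a log2 scale, per the file headers. DESeq is named in the submitters' processing notes. Neither an aligner, a counter, a build nor an annotation is named (not given in the sources used here). Read depth is unknown, so no counting interval was computed. The authors' deposited adjusted p values served only as an alternative.

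Samples were grouped by their titles. The 52 genes were found by the stated rule from means of the sample FPKM. limma 3.58.1 (R 4.3.3) was fitted to log2(FPKM + 1) with 1 term per genotype, a variance trend and empirical Bayes moderation, separately on the 10 samples of each age, with 5 residual degrees of freedom and 3.06 (P21) or 2.95 (P2) prior ones. Two-sided p values received Benjamini-Hochberg adjustment over each table. The fit was tested on simulated data. Because the tables hold genes selected on these samples, the share of false calls is not known, and the smallest p of an exact permutation test of 2 against 2 samples is 0.33. The pseudocount of 1 makes log2 differences understate the fold of low genes.

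The members, lists and tests were chosen with earlier results of these data known. Roles were assigned by hand after the members were known. Named genes were members in a function list, the 15 with the largest lowest ratio, the 10 with the highest mutant mean, up to 5 called each way in each of the 6 pairs, those in the P2 table and those at the threshold. Alternatives were a pseudocount of 0.1, a minimum of 3 FPKM, rescaling by the median ratio, a fit to the 4 samples compared, a replicate block, no variance trend, omission of each replicate, other thresholds of the rule and, added after seeing the data, the authors' adjusted p values and mean columns. Positions and promoter windows are from RefSeq on GRCm38.p6, matched by accession for 51 genes and by symbol for 1.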

Additional observations from a re-analysis of the deposited data

Results flagged for a closer look

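At P2 and P21 some members stood on opposite sides of wild type in the same mutant, with both mutant samples below both wild-type samples at P2 and above both at P21. The P21 direction was fixed by the choice of the genes, the ages were scaled separately, and the difference between ages was not tested. In Nrl-/- the P2 ratio to wild type was 0.418 for Tnc, 0.510 for Rgs22 and 0.453 for Btg2. Those 3 were no longer called after rescaling. In CrxRip/Rip the P2 ratio was 0.288 for Riiad1, 0.627 for Elfn2 and 0.447 for 1810041L15Rik. In CrxRip/+ it was 0.538 for Riiad1, 0.784 for Elfn2 and 0.720 for 1810041L15Rik, of which Riiad1 alone was called.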

How the results depend on the processing

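Of 156 single called differences, 81 kept their call in every alternative and 2 changed sign. Both changed under rescaling, Crybg3 in Nrl-/- against CrxRip/Rip at P21 to -0.10 and Rgs22 in Nrl-/- at P2 to 0.063. The number of genes that met the rule was 163 at 1.5 times wild type, 12 at 3 times, 32 at 5 FPKM, 31 when every mutant sample had to reach 2 times the higher wild-type sample, and 48 to 56 without 1 replicate. CrxRip/Rip against CrxRip/+ had 8 called members when only the 4 samples compared were fitted, where 10 samples gave 21. After rescaling, CrxRip/Rip had the highest mean for 21 members and Nrl-/- for 6. Without 1 replicate the called members numbered 18 to 25 (CrxRip/Rip against CrxRip/+), 15 to 23 (CrxRip/+ against Crx-/-), 17 to 27 (CrxRip/Rip against Crx-/-), 15 to 18, 14 to 19 and 22 to 29 (Nrl-/- against Crx-/-, CrxRip/+ and CrxRip/Rip), and the mutant with the highest mean was CrxRip/+ for 11 to 15 members, CrxRip/Rip for 9 to 18, Crx-/- for 14 to 18 and Nrl-/- for 7 to 13. Where a replicate was left out, the lone sample was assumed to vary like the other groups. At P2 the counts without 1 replicate were 0 to 1 for CrxRip/+, 2 to 4 for CrxRip/Rip, 0 for Crx-/- and 4 for Nrl-/-. CrxRip/+ at P2 gave 0 with only the 4 samples and 2 with no variance trend, CrxRip/Rip gave 1 with the 3 FPKM minimum, and Crx-/- gave 2 after rescaling (both higher) or by the authors' adjusted p (1 higher and 1 lower), and 1, higher, with the minimum, with only the 4 samples, with the replicate block or with no trend. Apart from the fits with fewer samples or genes, the cause was not tested. Deviations of same-numbered samples of different genotypes had correlations of -0.30 to 0.235 at P21 and -0.243 to 0.332 at P2. At each age 4 of 10 pairs of genotypes were over 0.1. The signs were mixed, which does not show that same-numbered samples were handled apart, and the main fit used no pairing. With the replicate block 19, 28, 29, 22, 19 and 28 members were called in the 6 mutant pairs, in the order of the report. The single decimal of the values limits genes under 1 FPKM.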
